A study of Mus musculus with 8 samples.

Results

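The genes described here encode secreted ligands of the TGF-beta superfamily and follistatin, a protein that binds activin. They are Tgfb1, Tgfb2 and Tgfb3 (the TGF-beta ligands), Inhba and Inhbb (the beta subunits of the activins), Bmp2, Bmp4 and Bmp7 (bone morphogenetic proteins) and Fst (follistatin). They were chosen by symbol, and all 9 were found among the 24907 symbols of the count table. Messenger RNA was measured by RNA-seq in 8 libraries of ASZ001, a mouse basal cell carcinoma cell line, in a study of how basal cell carcinoma turns into squamous cell carcinoma. The 4 groups of 2 libraries were TGFbR1kd cells with RasV12 under Dox-4OHT, NS cells with RasV12 under Dox-4OHT, TGFbR1kd cells under DMSO and NS cells under DMSO. TGFbR1kd cells carried an shRNA against Tgfbr1 (knockdown cells here) and NS cells a non-silencing shRNA. Dox commonly stands for doxycycline and 4OHT for 4-hydroxytamoxifen, and RasV12 is an activated form of Ras. Every library labelled RasV12 received Dox-4OHT and no other library did, so RasV12 and the drugs cannot be told apart. All groups share 1 cell line, and neither the number of clones nor that of hairpins against Tgfbr1 is given in the sources used here. The labels do not tell whether the replicate libraries stem from separate cultures, so p-values here reflect the spread among these libraries alone, and that spread may be technical.

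Ligands of this superfamily are secreted as dimers and bind a complex of type I and type II receptor kinases, which phosphorylate SMAD transcription factors. TGF-beta ligands signal mainly through the type I receptor encoded by Tgfbr1, activins mainly through that encoded by Acvr1b, and BMPs through a further set of type I receptors and another set of SMADs. In skin, TGF-beta restrains the growth of keratinocytes, activin takes part in wound repair, and BMPs act in hair follicle cycling and epidermal differentiation.

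Tgfbr1 itself had 8.86 and 9.38 CPM, the counts scaled to library size, in knockdown cells under Dox-4OHT, against 104 and 91.6 CPM in NS cells under Dox-4OHT. Under DMSO it had 10.2 and 8.08 CPM in knockdown cells, against 77.1 and 80.4 CPM in NS cells. The knockdown libraries were thus the low ones in both treatments, as labelled. Library totals ran from 12724604.5 to 16233379 counts, and the 9 genes described had between 91.5 and 8958 counts per library. Summed CPM of 8 keratinocyte and basal epithelium markers ran from 12028 to 12504 in knockdown cells under Dox-4OHT, 12495 to 12717 in NS cells under Dox-4OHT, 15948 to 16706 in knockdown cells under DMSO and 25082 to 25448 in NS cells under DMSO. All 8 were detected, with most counts in Krt5 and Krt14, and the 8 moved in both directions. By edgeR (adjusted p under 0.05), 3 were higher and 3 lower with Dox-4OHT in knockdown cells, beside 19.5% and 16.6% of all genes. In NS cells 2 were higher and 6 lower, beside 20.8% and 21.3%. With the knockdown, 3 were higher and 2 lower under Dox-4OHT, beside 30.5% and 29.7%. Under DMSO 4 were higher and 4 lower, beside 30.9% and 31.0%. The part of the 8 in the ligand results was not tested. The 6 fibroblast markers summed to 1.14 to 1.91 CPM in knockdown cells under Dox-4OHT, 3.47 to 4.39 CPM in NS cells under Dox-4OHT, 2.67 to 2.95 CPM in knockdown cells under DMSO and 3.77 to 3.92 CPM in NS cells under DMSO, with Col3a1 and Lum at 0 in every library. The 5 immune markers, with most counts in Cd68, summed to 15.0 to 15.5 CPM in knockdown cells under Dox-4OHT. Elsewhere they summed to at most 9.02 CPM. Cd3e and Adgre1 were at 0, while Ptprc had 5.5 counts and Itgam 4.5 counts over all libraries. The 4 endothelial markers, with most counts in Pecam1, summed to 35.3 to 35.5 CPM in knockdown cells under Dox-4OHT, 23.0 to 24.5 CPM in NS cells under Dox-4OHT, 29.6 to 30.8 CPM in knockdown cells under DMSO and 37.3 to 38.3 CPM in NS cells under DMSO, while Cdh5 had 1.5 counts and Kdr 1 count over all libraries. The 4 pigment cell markers, with most counts in Pmel, summed to 4.23 to 4.65 CPM in knockdown cells under Dox-4OHT, 3.78 to 4.39 CPM in NS cells under Dox-4OHT, 3.37 to 4.20 CPM in knockdown cells under DMSO and 6.0 to 6.22 CPM in NS cells under DMSO, while Dct and Tyr had no count. The part of these markers in the ligand results was not tested either. The 5 Hedgehog output markers, which mark basal cell carcinoma, summed to 35.8 to 38.0 CPM in knockdown cells under Dox-4OHT, 27.3 to 27.7 CPM in NS cells under Dox-4OHT, 30.7 to 32.0 CPM in knockdown cells under DMSO and 23.4 to 26.0 CPM in NS cells under DMSO. As these are bulk samples, fewer cells of a type and less RNA per cell cannot be told apart.

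The RefSeq promoter table (build GRCm38.p6) held 5 of the 9 genes, which are Tgfb1, Tgfb2, Inhba, Inhbb and Bmp4. The letters of 4 of them are shown, since the results turn on genes whose Dox-4OHT response differed between knockdown and NS cells. The 250 bases before the start are given 5' to 3' on the strand of the gene for Tgfb2 (chr1:186705990-186706239, minus strand), Inhba (chr13:16011601-16011850, plus strand), Inhbb (chr1:119422249-119422498, minus strand) and Bmp4 (chr14:46390670-46390919, minus strand). Capitals mark matches to the motifs searched.
Tgfb2: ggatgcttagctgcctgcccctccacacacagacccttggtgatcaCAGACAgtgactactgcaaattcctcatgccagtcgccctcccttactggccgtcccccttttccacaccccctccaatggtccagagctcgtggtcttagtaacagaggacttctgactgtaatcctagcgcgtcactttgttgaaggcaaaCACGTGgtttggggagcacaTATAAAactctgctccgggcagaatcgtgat
Inhba: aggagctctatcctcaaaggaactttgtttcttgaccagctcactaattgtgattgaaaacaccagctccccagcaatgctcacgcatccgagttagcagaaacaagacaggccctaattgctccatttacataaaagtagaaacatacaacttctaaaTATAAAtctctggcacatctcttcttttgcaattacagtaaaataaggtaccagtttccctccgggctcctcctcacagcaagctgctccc
Inhbb: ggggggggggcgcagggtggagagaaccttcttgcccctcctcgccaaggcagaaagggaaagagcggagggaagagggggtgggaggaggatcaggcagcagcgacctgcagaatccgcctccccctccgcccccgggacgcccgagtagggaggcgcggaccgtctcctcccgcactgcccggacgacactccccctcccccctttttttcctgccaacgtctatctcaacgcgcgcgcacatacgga
Bmp4: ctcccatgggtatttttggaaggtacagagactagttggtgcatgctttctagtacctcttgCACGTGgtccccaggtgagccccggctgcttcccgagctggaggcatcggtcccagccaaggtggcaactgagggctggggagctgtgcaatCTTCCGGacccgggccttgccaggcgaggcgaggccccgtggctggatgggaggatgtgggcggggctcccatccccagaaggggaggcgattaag

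The search for 9 motifs covered both strands. The letters TGACTCA stood for AP-1, a dimer of the Fos and Jun families that lies downstream of Ras and MAP kinases. For CREB family factors the palindrome TGACGTCA was used. SMAD proteins were covered by a palindrome, GTCTAGAC, and by the shorter box CAGACA. ETS factors, which MAP kinases phosphorylate, were covered by the letters CCGGAAG. An E-box, bound by basic helix-loop-helix factors, was written CACGTG. The TATA box of core promoters was written TATAAA. Hedgehog output was covered by the GLI motif TGGGTGGTC, and the partners of YAP by the TEAD motif GGAATG. None of them overlapped another in these windows. Tgfb2 held CAGACA, found in 17.1% of 32851 promoter windows of the same length, CACGTG, found in 6.02%, and TATAAA, found in 12.4%. Inhba held TATAAA only. Bmp4 held CACGTG and, as CTTCCGG on the strand printed, the ETS letters, found in 6.91% of windows. Inhbb held none of the 9 motifs. The other shares were 4.46% for AP-1, 1.55% for CRE, 0.167% for the SMAD palindrome, 0.225% for GLI and 12.6% for TEAD. G and C made up 53.6% of the Tgfb2 window, 43.2% of that of Inhba, 68.0% of that of Inhbb and 63.2% of that of Bmp4. The same window of Tgfb1 (chr7:25686752-25687001, plus strand) held 75.2% G and C and none of the motifs. These matches are descriptions of letters, not sites.

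Levels between genes were compared as CPM per kilobase of the deposited length. Fst was the most abundant of the 9 transcripts in every group, at 162 CPM per kilobase in knockdown cells under Dox-4OHT, 123 in NS cells under Dox-4OHT, 200.2 in knockdown cells under DMSO and 198 in NS cells under DMSO (means of 2 libraries). Inhbb came second in 3 groups, at 37.4, 54.1 and 62.5 CPM per kilobase in knockdown cells under Dox-4OHT, NS cells under Dox-4OHT and NS cells under DMSO. In knockdown cells under DMSO the second was Tgfb1 at 28.2 CPM per kilobase, with Inhbb at 26.1. Bmp7 was lowest in 3 groups, at 2.45 CPM per kilobase in knockdown cells under Dox-4OHT, 4.41 in NS cells under Dox-4OHT and 2.12 in knockdown cells under DMSO, and in NS cells under DMSO its libraries overlapped those of Tgfb3. Other neighbours in the order whose libraries overlapped were Bmp2 and Bmp4 in knockdown cells under Dox-4OHT, Inhba and Tgfb2 in NS cells under Dox-4OHT, Bmp4 and Inhba in knockdown cells under DMSO, and Bmp2 and Inhba in NS cells under DMSO.

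**Figure D1:**
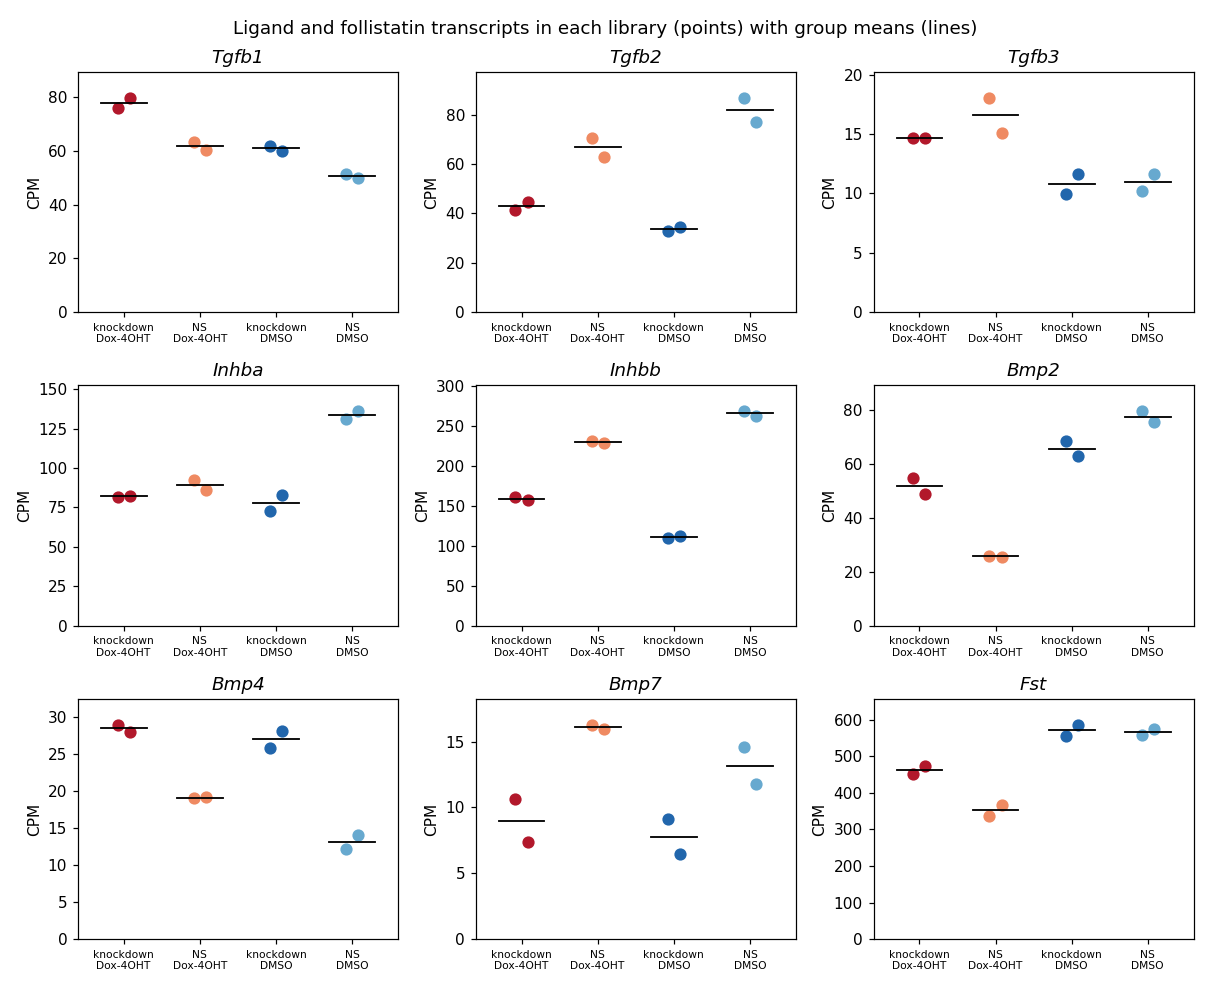
CPM of each of the 9 genes (vertical axis, from 0, on a scale of its own per panel) in each library (points) of the 4 groups (horizontal axis), with lines at the group means. Tgfb2, Inhbb and Inhba were highest in NS cells under DMSO, Bmp2 was lowest in NS cells under Dox-4OHT, and Bmp4 was higher in both knockdown groups than in both NS groups.

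Among the TGF-beta ligands, Tgfb1 was higher with Dox-4OHT and higher with the knockdown, Tgfb2 was lower with the knockdown and changed in opposite directions with Dox-4OHT in knockdown and NS cells, and Tgfb3 was higher with Dox-4OHT. Tgfb1, the TGF-beta ligand most widely expressed in tissues, had 76.1 and 79.9 CPM in knockdown cells under Dox-4OHT, against 63.5 and 60.4 CPM in NS cells under Dox-4OHT. Under DMSO, Tgfb1 had 62.0 and 60.0 CPM in knockdown cells, against 51.4 and 50.0 CPM in NS cells. In none of the 4 comparisons between groups did the libraries overlap, with knockdown cells under Dox-4OHT highest and NS cells under DMSO lowest. With Dox-4OHT, Tgfb1 rose by 0.35 ± 0.05 on the log2 scale in knockdown cells (standard error, SE, of the fitted model; n = 2 per group; edgeR quasi-likelihood test, Benjamini-Hochberg adjusted p = 8.55e-06) and by 0.29 ± 0.06 in NS cells (adjusted p = 0.000192). With the knockdown, it rose by 0.33 ± 0.05 under Dox-4OHT (edgeR adjusted p = 7.44e-06) and by 0.27 ± 0.06 under DMSO (adjusted p = 0.000244). The difference between its Dox-4OHT responses, knockdown minus NS cells, was 0.07 ± 0.08 (95% interval -0.10 to 0.23, edgeR adjusted p = 0.549) and did not pass the test.

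Tgfb2 had 41.6 and 44.7 CPM in knockdown cells under Dox-4OHT, against 70.5 and 63.0 CPM in NS cells under Dox-4OHT. Under DMSO, Tgfb2 had 32.9 and 34.3 CPM in knockdown cells, against 86.9 and 77.2 CPM in NS cells. Every knockdown library was below every NS library. Dox-4OHT went with a rise of 0.36 ± 0.08 (log2) in knockdown cells (edgeR adjusted p = 0.000818) and with a change of -0.30 ± 0.06 in NS cells (adjusted p = 0.000364). The knockdown changed Tgfb2 by -0.63 ± 0.07 under Dox-4OHT (edgeR adjusted p = 2.56e-08) and by -1.29 ± 0.07 under DMSO (adjusted p = 4.23e-14). The Dox-4OHT responses differed by 0.66 ± 0.10, knockdown minus NS cells (edgeR adjusted p = 1.13e-05).

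Tgfb3 was the least abundant TGF-beta transcript per length, with 14.7 and 14.7 CPM in knockdown cells under Dox-4OHT, against 18.1 and 15.1 CPM in NS cells under Dox-4OHT. Under DMSO, Tgfb3 had 9.93 and 11.7 CPM in knockdown cells, against 10.2 and 11.7 CPM in NS cells. The DMSO groups overlapped and lay below every Dox-4OHT library. With Dox-4OHT, Tgfb3 rose by 0.44 ± 0.12 (log2) in knockdown cells (edgeR adjusted p = 0.00577) and by 0.60 ± 0.12 in NS cells (adjusted p = 0.000147). The rise in knockdown cells missed the threshold by DESeq2 (adjusted p = 0.0614) and without knockdown replicate 1 under DMSO (0.32, edgeR adjusted p = 0.0964). The knockdown difference was -0.17 ± 0.11 under Dox-4OHT (edgeR adjusted p = 0.19) and -0.01 ± 0.13 under DMSO (95% interval -0.27 to 0.25, adjusted p = 0.961), neither past the threshold.

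The activin subunits were lower in knockdown cells than in NS cells under DMSO, and their Dox-4OHT responses differed between the cells. Inhba, which encodes the beta A subunit, had 81.7 and 82.3 CPM in knockdown cells under Dox-4OHT, against 92.6 and 86.0 CPM in NS cells under Dox-4OHT. Under DMSO, Inhba had 72.7 and 83.1 CPM in knockdown cells, against 131 and 136 CPM in NS cells. NS cells under DMSO stood apart as the high group, and the knockdown groups overlapped each other. With Dox-4OHT, the value of Inhba was 0.07 ± 0.06 (log2) in knockdown cells (95% interval -0.05 to 0.19, edgeR adjusted p = 0.356), and it fell by 0.58 ± 0.05 in NS cells (adjusted p = 1.43e-09). Without knockdown replicate 2 under DMSO the value in knockdown cells was 0.17 and passed (edgeR adjusted p = 0.0463). The knockdown difference was -0.12 ± 0.06 under Dox-4OHT (edgeR adjusted p = 0.0635) and -0.77 ± 0.05 under DMSO (adjusted p = 2.69e-12). Under Dox-4OHT this difference passed under 6 of 18 other settings, among them scaling to library totals alone (-0.16, edgeR adjusted p = 0.0153) and leaving out NS replicate 2 under Dox-4OHT (-0.17, adjusted p = 0.0364).

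Inhbb, which encodes the beta B subunit, had 161 and 157 CPM in knockdown cells under Dox-4OHT, against 232 and 229 CPM in NS cells under Dox-4OHT. Under DMSO, Inhbb had 109.9 and 112 CPM in knockdown cells, against 269 and 263 CPM in NS cells. The 4 groups were fully separated, in an order from knockdown cells under DMSO as lowest to NS cells under DMSO as highest. Dox-4OHT went with a rise of 0.52 ± 0.04 (log2) in knockdown cells (edgeR adjusted p = 6.8e-11) and with a change of -0.21 ± 0.04 in NS cells (adjusted p = 3.67e-05). The knockdown changed Inhbb by -0.53 ± 0.04 under Dox-4OHT (edgeR adjusted p = 2.05e-12) and by -1.26 ± 0.04 under DMSO (adjusted p = 2.03e-20). The Dox-4OHT responses differed, knockdown minus NS cells, by 0.65 ± 0.08 for Inhba (edgeR adjusted p = 2.77e-07) and by 0.73 ± 0.05 for Inhbb (adjusted p = 4.54e-11).

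Of the BMP ligands, Bmp2 was lower with Dox-4OHT, Bmp4 was higher with the knockdown and Bmp7 was lower with it. Bmp2 had 54.9 and 49.1 CPM in knockdown cells under Dox-4OHT, against 25.9 and 25.5 CPM in NS cells under Dox-4OHT. Under DMSO, Bmp2 had 68.4 and 63.0 CPM in knockdown cells, against 79.7 and 75.6 CPM in NS cells. NS cells under Dox-4OHT were far below the other 3 groups, and no groups overlapped. Bmp2 changed with Dox-4OHT by -0.33 ± 0.06 (log2) in knockdown cells (edgeR adjusted p = 0.000129) and by -1.60 ± 0.07 in NS cells (adjusted p = 1.67e-16). The change in NS cells was the largest change with Dox-4OHT among the 9 genes, and the responses differed by 1.26 ± 0.10, knockdown minus NS cells (edgeR adjusted p = 4.7e-11). With the knockdown, Bmp2 was higher by 1.02 ± 0.08 under Dox-4OHT (edgeR adjusted p = 3.15e-12) and changed by -0.24 ± 0.06 under DMSO (adjusted p = 0.000769).

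Bmp4 had 28.9 and 27.9 CPM in knockdown cells under Dox-4OHT, against 19.0 and 19.2 CPM in NS cells under Dox-4OHT. Under DMSO, Bmp4 had 25.8 and 28.0 CPM in knockdown cells, against 12.2 and 14.1 CPM in NS cells. The knockdown groups overlapped each other and lay above both NS groups. The knockdown went with a rise of 0.58 ± 0.09 (log2) under Dox-4OHT (edgeR adjusted p = 2.86e-06) and of 1.04 ± 0.10 under DMSO (adjusted p = 2.39e-10). With Dox-4OHT, the value of Bmp4 was 0.08 ± 0.08 in knockdown cells (95% interval -0.09 to 0.25, edgeR adjusted p = 0.501), and it rose by 0.55 ± 0.10 in NS cells (adjusted p = 7.8e-05). Between knockdown and NS cells the responses differed by -0.47 ± 0.13 (knockdown minus NS; edgeR adjusted p = 0.00557), and it missed the threshold by DESeq2 (-0.46, adjusted p = 0.0776) and without NS replicate 1 under DMSO (-0.37, edgeR adjusted p = 0.058).

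Bmp7, known for its part in kidney and eye development, had 10.6 and 7.35 CPM in knockdown cells under Dox-4OHT, against 16.3 and 16.0 CPM in NS cells under Dox-4OHT. Under DMSO, Bmp7 had 9.09 and 6.47 CPM in knockdown cells, against 14.6 and 11.8 CPM in NS cells. Each knockdown library was below each NS library of the same treatment. With the knockdown, Bmp7 changed by -0.82 ± 0.17 (log2) under Dox-4OHT (edgeR adjusted p = 0.000511) and by -0.78 ± 0.18 under DMSO (adjusted p = 0.00131). Its Dox-4OHT values, 0.24 ± 0.19 in knockdown cells (edgeR adjusted p = 0.377) and 0.28 ± 0.15 in NS cells (adjusted p = 0.152), did not pass. In NS cells the value passed with no filter on low counts (0.29, edgeR adjusted p = 0.0366). Single libraries moved both values. In knockdown cells the value was -0.07 without knockdown replicate 1 under Dox-4OHT, 0.46 without replicate 2 under Dox-4OHT, 0.48 without replicate 1 under DMSO and 0.0025 without replicate 2 under DMSO. In NS cells it was 0.45 without NS replicate 1 under DMSO and 0.15 without NS replicate 2 under DMSO.

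Fst, whose product binds activins and with lower affinity several BMPs, had 451 and 474 CPM in knockdown cells under Dox-4OHT, against 338 and 367 CPM in NS cells under Dox-4OHT. Under DMSO, Fst had 555 and 587 CPM in knockdown cells, against 557 and 575 CPM in NS cells. The DMSO groups overlapped, and every Dox-4OHT library was below them. Fst fell by 0.31 ± 0.04 (log2) with Dox-4OHT in knockdown cells (edgeR adjusted p = 1.64e-06) and by 0.68 ± 0.04 in NS cells (adjusted p = 1.72e-12), and the responses differed by 0.38 ± 0.06, knockdown minus NS cells (adjusted p = 1.07e-05). The knockdown difference was 0.39 ± 0.04 under Dox-4OHT (edgeR adjusted p = 1.26e-08) and 0.01 ± 0.04 under DMSO (95% interval -0.07 to 0.09, adjusted p = 0.783).

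**Figure D2:**
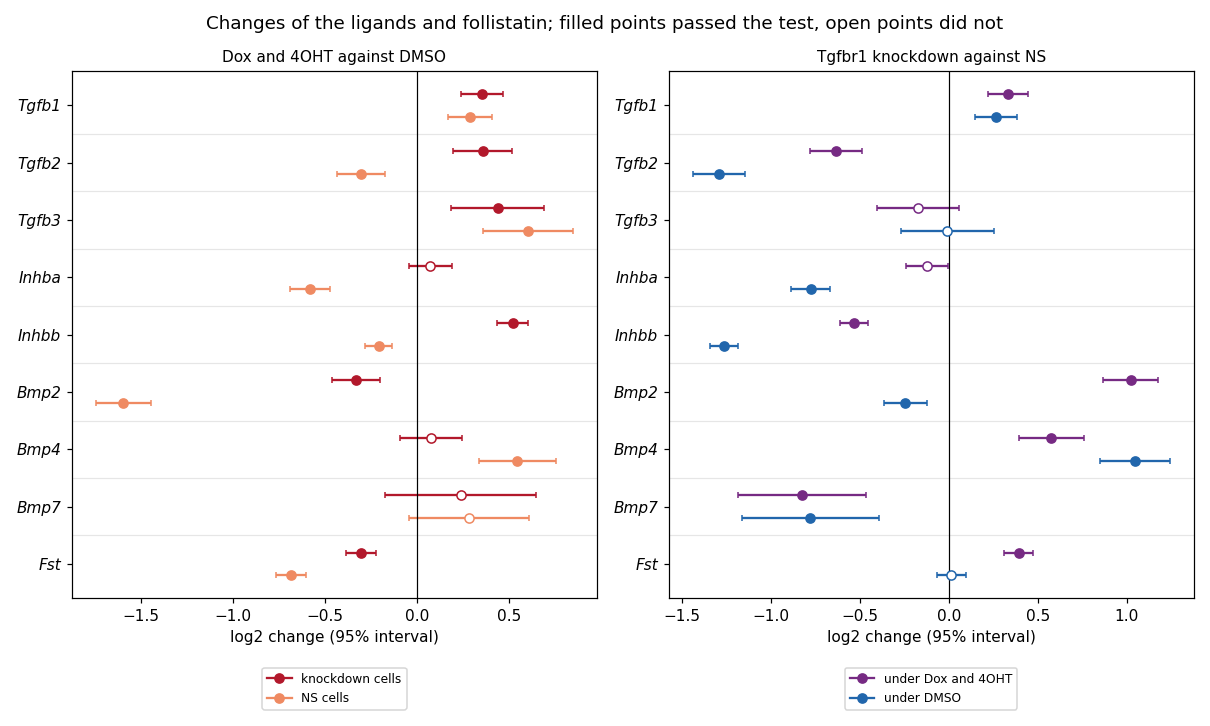
Log2 change (horizontal axis) with its 95% interval for each of the 9 genes, with Dox-4OHT against DMSO on the left and knockdown against NS cells on the right; filled points passed the test and open points did not. Tgfb2 and Inhbb lie on opposite sides of 0 in knockdown and NS cells on the left, and Bmp2 does so under Dox-4OHT and DMSO on the right.

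Counted together, 6 of the 9 genes changed with Dox-4OHT in knockdown cells, 4 higher and 2 lower, where 36.1% of the 12538 genes tested changed, 19.5% higher and 16.6% lower. In NS cells 8 changed, 3 higher and 5 lower, against 42.1% of all genes, 20.8% higher and 21.3% lower. With the knockdown, 7 changed under Dox-4OHT, 4 higher and 3 lower, against 60.2% of all genes, 30.5% higher and 29.7% lower. Under DMSO 7 changed, 2 higher and 5 lower, against 61.9% of all genes, 30.9% higher and 31.0% lower. As most genes tested changed with the knockdown, a count of 7 of 9 says little about these genes in particular. The Dox-4OHT response differed between knockdown and NS cells in 6 of the 9, 5 of them higher and 1 lower in knockdown cells, against 38.2% of all genes, 20.2% higher and 18.0% lower. The median absolute log2 change of the 9 was 0.33 with Dox-4OHT in knockdown cells and 0.55 in NS cells, beside 0.16 and 0.18 over all genes. With the knockdown it was 0.53 under Dox-4OHT and 0.77 under DMSO, beside 0.27 and 0.28 over all genes. Of all genes called, 54.0% were higher in the Dox-4OHT response of knockdown cells and 52.8% in the difference of responses; scaling to library totals alone gave 43.9% and 40.9%. For Dox-4OHT in NS cells the share was 49.5%, and 56.6% by library totals. With the knockdown it was 50.7% under Dox-4OHT and 49.9% under DMSO, and 45.0% and 53.4% by library totals. Under that scaling the counts of the 9 genes were the same except for the knockdown under Dox-4OHT, where Inhba made 4 of them lower. The libraries of the 2 groups did not overlap in CPM for 6 of the 9 genes with Dox-4OHT in knockdown cells, where 67.1% of all genes did not, and for 9 in NS cells, where 70.2% did not. With the knockdown they did not overlap for 9 under Dox-4OHT and for 7 under DMSO, where 78.7% and 81.2% of all genes did not. The comparisons share groups, so they are not independent of each other.

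The proportions within each ligand class were read per length, library by library, with no test, because 2 libraries against 2 allow no exact permutation p below 0.333. Tgfb1 made up 74.0% of the summed TGF-beta transcripts in both knockdown libraries under Dox-4OHT, against 60.7% and 62.7% in NS cells under Dox-4OHT. Under DMSO its share was 75.5% and 73.4% in knockdown cells, against 54.5% and 55.8% in NS cells. The knockdown libraries were above the NS libraries in both treatments. Fst stood at 3.12 and 3.33 times the summed activin subunits in knockdown cells under Dox-4OHT, against 1.71 and 1.91 times in NS cells under Dox-4OHT. Under DMSO, Fst stood at 5.23 and 5.22 times that sum in knockdown cells, against 2.33 and 2.42 times in NS cells. Both knockdown groups were above both NS groups, though Fst itself did not pass the test under DMSO.

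The ratio of Bmp2 to Bmp4 per length was 1.09 (95% interval 0.975 to 1.23) and 1.01 (0.889 to 1.16) in knockdown cells under Dox-4OHT, against 0.786 (0.666 to 0.932) and 0.765 (0.65 to 0.902) in NS cells under Dox-4OHT. Under DMSO it was 1.53 (1.35 to 1.74) and 1.30 (1.15 to 1.46) in knockdown cells, against 3.77 (3.24 to 4.41) and 3.09 (2.66 to 3.62) in NS cells. NS cells thus held both the highest and the lowest ratios. These intervals are from the exact binomial (Clopper-Pearson) method and cover counting error only, as reads without molecular identifiers are not independent molecules.

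**Figure D3:**
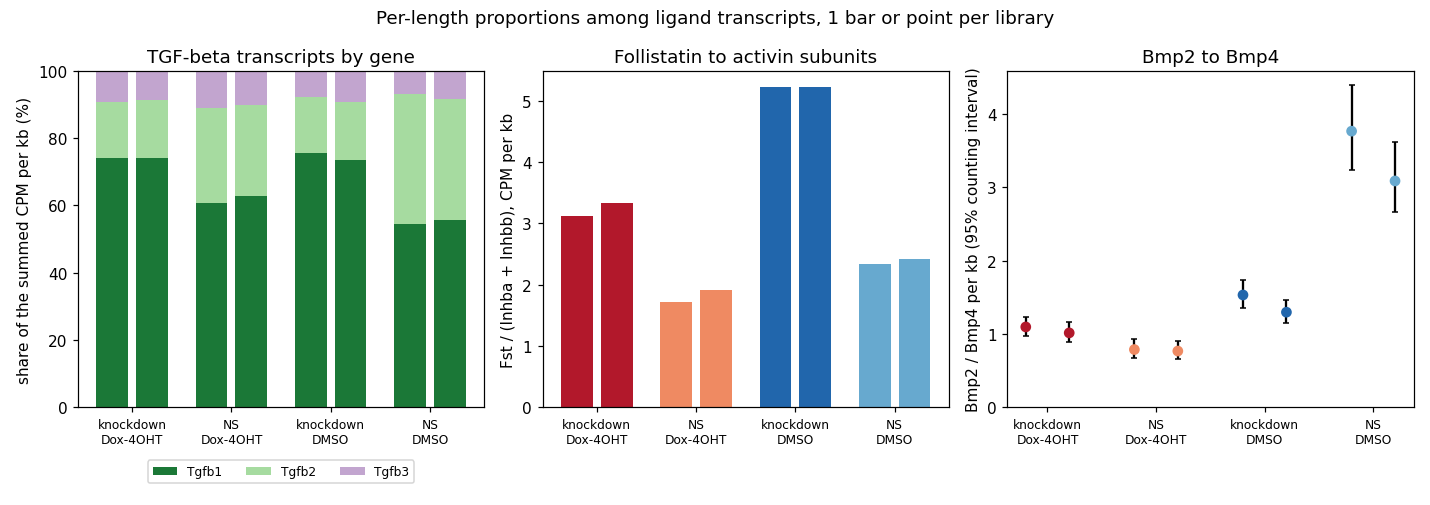
Per-length proportions with 1 bar or point per library in the 4 groups: shares of Tgfb1, Tgfb2 and Tgfb3 in their sum (%), Fst over the sum of Inhba and Inhbb, and Bmp2 over Bmp4 with 95% counting intervals. Tgfb1 took 74.0% in both knockdown libraries under Dox-4OHT, and Bmp2 over Bmp4 reached 3.77 and 3.09 in NS cells under DMSO.

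Of 25 other ligands of the superfamily, 4 were abundant enough to test, 12 had no count and 9 were listed with at most 7 counts in a library and at most 37 over all libraries. Gdf11, a ligand that uses activin type receptors, had 36.0 and 34.9 CPM in knockdown cells under Dox-4OHT, against 23.8 and 25.3 CPM in NS cells under Dox-4OHT, and 23.2 and 21.1 CPM in knockdown cells under DMSO, against 16.7 and 17.1 CPM in NS cells under DMSO. It rose with Dox-4OHT by 0.68 (log2) in knockdown cells (edgeR adjusted p = 1.04e-07) and by 0.54 in NS cells (adjusted p = 1.55e-05). Gdf15, a stress-induced ligand chosen after its values were seen, was the other called ligand, higher with Dox-4OHT in both cells, with 21 and 12.5 counts in knockdown cells under Dox-4OHT, 7.5 and 8.5 in NS cells under Dox-4OHT, 5 and 3 in knockdown cells under DMSO and 2.5 and 3 in NS cells under DMSO. Bmp6 and Gdf1 passed in no comparison, with at most 2.22 CPM for Bmp6 and 5.08 CPM for Gdf1.

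Of 9 tested antagonists and ligand-binding proteins among 17 listed, 1 was higher and 3 lower with Dox-4OHT in knockdown cells, beside 19.5% and 16.6% of all genes. In NS cells 0 were higher and 6 lower, beside 20.8% and 21.3% of all genes. Htra1, a secreted protease that binds TGF-beta family ligands, changed by -0.26 (log2) in knockdown cells (edgeR adjusted p = 1.44e-07) and by -0.98 in NS cells (adjusted p = 1.15e-19). Sostdc1, a secreted BMP and Wnt antagonist, had 65.9 and 63.8 CPM in knockdown cells under Dox-4OHT, against 17.3 and 14.6 CPM in NS cells under Dox-4OHT, and 36.3 and 33.2 CPM in knockdown cells under DMSO, against 47.1 and 39.6 CPM in NS cells under DMSO. Its response was 0.90 in knockdown cells (edgeR adjusted p = 2.52e-09) and -1.45 in NS cells (adjusted p = 1.67e-11), a difference of 2.35 (adjusted p = 1.09e-12). With the knockdown, 4 of the 9 were higher and 5 lower under Dox-4OHT, beside 30.5% and 29.7% of all genes. Under DMSO 2 were higher and 6 lower, beside 30.9% and 31.0%. Bambi, a decoy receptor, differed by -2.55 (log2) with the knockdown under Dox-4OHT (edgeR adjusted p = 4.39e-12) and by -2.73 under DMSO (adjusted p = 4.98e-14). Fstl3, a relative of follistatin that also binds activin, differed by -0.45 under Dox-4OHT (edgeR adjusted p = 0.000393) and by -0.94 under DMSO (adjusted p = 8.27e-10).

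Of 11 tested genes for latency, processing and activation of the ligands, 4 were higher and 6 lower with the knockdown under Dox-4OHT, beside 30.5% and 29.7% of all genes, and 3 were higher and 7 lower under DMSO, beside 30.9% and 31.0%. Thbs1, which encodes thrombospondin-1, an activator of latent TGF-beta, differed by -0.98 (log2) under Dox-4OHT (edgeR adjusted p = 1.12e-19) and by -0.91 under DMSO (adjusted p = 3.4e-19). Ltbp4 and Ltbp1, whose products hold latent TGF-beta in the matrix, differed by -0.46 and -0.37 under Dox-4OHT and by -0.78 and -0.73 under DMSO, each past the threshold (edgeR adjusted p between 7.84e-16 and 8.24e-10 for Ltbp1 and between 1.2e-16 and 9.81e-12 for Ltbp4). Furin, which cleaves the precursors of these ligands, was higher by 0.64 under Dox-4OHT (edgeR adjusted p = 5.89e-14) and by 0.37 under DMSO (adjusted p = 4.02e-09).

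Of 12 tested receptors, with Tgfbr1 itself among them, 5 were higher and 2 lower with the knockdown under Dox-4OHT, beside 30.5% and 29.7% of all genes, and 6 were higher and 4 lower under DMSO, beside 30.9% and 31.0%. The silenced gene is 1 of those lower in both. Tgfbr2, the type II receptor of TGF-beta, was higher by 0.92 (log2) under Dox-4OHT (edgeR adjusted p = 1.67e-16) and by 0.52 under DMSO (adjusted p = 1.76e-11). Tgfbr3, the coreceptor betaglycan, had 112 and 78.5 counts in knockdown cells under Dox-4OHT, against 3.5 and 3 counts in NS cells under Dox-4OHT, and 18.5 and 17.5 counts in knockdown cells under DMSO, against 1 and 0 counts in NS cells under DMSO. Acvr1b, the activin type I receptor, was higher by 0.51 (log2) under Dox-4OHT (edgeR adjusted p = 2.11e-09) and by 0.40 under DMSO (adjusted p = 1.73e-07), while Acvr1, a BMP type I receptor, changed by -0.38 (adjusted p = 5.97e-06) and -0.23 (adjusted p = 0.00403). Of the 8 SMADs, 3 were higher and 3 lower with the knockdown under Dox-4OHT, beside 30.5% and 29.7% of all genes, and 1 was higher and 5 lower under DMSO, beside 30.9% and 31.0%. Smad6, an inhibitory SMAD of the BMP branch, responded to Dox-4OHT by 0.33 (log2) in knockdown cells (edgeR adjusted p = 0.00487) and by -0.75 in NS cells (adjusted p = 2.72e-07). Smad1, which carries BMP signals, rose by 0.73 in knockdown cells (edgeR adjusted p = 1.38e-10) and by 0.44 in NS cells (adjusted p = 1.84e-07).

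Of 13 tested TGF-beta response genes, 6 were higher and 5 lower with the knockdown under Dox-4OHT, beside 30.5% and 29.7% of all genes, and 4 were higher and 6 lower under DMSO, beside 30.9% and 31.0%. Pmepa1, a feedback inhibitor induced by TGF-beta, had 140 and 149 CPM in knockdown cells under Dox-4OHT, against 332 and 329 CPM in NS cells under Dox-4OHT, and 147 and 158 CPM in knockdown cells under DMSO, against 389 and 381 CPM in NS cells under DMSO. Col4a1, a basement membrane collagen, differed by -0.72 (log2) under Dox-4OHT (edgeR adjusted p = 7.04e-17) and by -0.87 under DMSO (adjusted p = 1.02e-18). For Bhlhe40 the knockdown difference was 0.13 under Dox-4OHT (edgeR adjusted p = 0.0621), not past the threshold, and -0.19 under DMSO (adjusted p = 0.0324). Of 9 tested BMP response genes, 5 were higher and 0 lower with Dox-4OHT in knockdown cells, beside 19.5% and 16.6% of all genes, and 2 were higher and 3 lower in NS cells, beside 20.8% and 21.3%. Dlx3, a homeobox regulator of epidermal differentiation, changed by 0.34 (log2) in knockdown cells (edgeR adjusted p = 0.0302) and by -1.71 in NS cells (adjusted p = 2.37e-13). Msx2, a homeobox gene induced by BMP, changed by 0.43 in knockdown cells (edgeR adjusted p = 0.0257) and by -0.75 in NS cells (adjusted p = 4.97e-06). Id3, an inhibitor of differentiation, changed by 0.39 in knockdown cells (edgeR adjusted p = 1.13e-07), and its value in NS cells was -0.10 (adjusted p = 0.0793). For Id4 the value in knockdown cells was 0.24 (edgeR adjusted p = 0.57), and the change in NS cells was 1.03 (adjusted p = 6.79e-08).

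**Figure D4:**
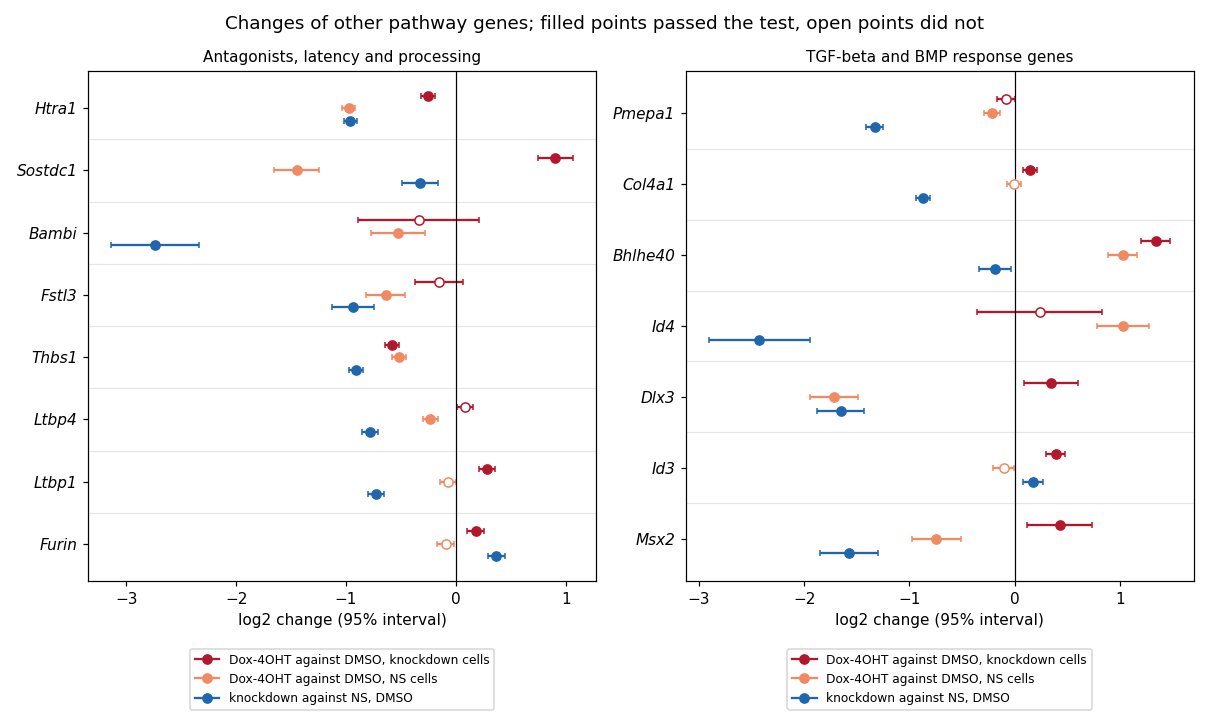
Log2 change (horizontal axis) with its 95% interval of pathway genes other than the 9, antagonists, latency and processing genes on the left and TGF-beta and BMP response genes on the right, in 3 comparisons; filled points passed the test and open points did not. Sostdc1, Dlx3 and Msx2 lie above 0 with Dox-4OHT in knockdown cells and below 0 in NS cells.

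The genes whose log2 CPM followed the ligands most closely over the 8 libraries were found by Pearson correlation among genes with a mean of at least 5 CPM. The 9 genes themselves, and genes with predicted, clone, microRNA or small nucleolar RNA names, were left out of this search. The 8 points are pairs of libraries from 4 groups and differ in depth, so these values describe the libraries and carry no test. Tgfb1 was followed most closely by Thbs2 (r = 0.993) and Sec14l1 (r = 0.992). For Tgfb2, Slc12a7 had r = 0.995, and the nearest to Tgfb3 were Mafg (r = 0.989) and Rnf113a2 (r = 0.974). Among the activin subunits, Inhba was nearest to Ptpn14 (r = 0.989) and Cox6c (r = 0.984), and Inhbb to Prickle1 (r = 0.996) and Rnf214 (r = 0.994). For Bmp2, Dstn had r = 0.994. Bmp4 was nearest to Cnot3 and Nrg2 (r = 0.997 and 0.995) and Bmp7 to Tcaim and Pdcl (r = 0.973 and 0.968). Fst was nearest to Fgf5 and Tns1 (r = 0.986 for each). Between the 9 genes themselves, Tgfb2 and Inhbb had r = 0.983 and Tgfb2 and Inhba r = 0.844. Of the other pairs, Bmp2 and Fst had r = 0.956, Tgfb2 and Bmp4 r = -0.919 and Inhba and Bmp4 r = -0.907.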

How the data were processed

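RNA-seq libraries of ASZ001 cells (TruSeq, 2 per group) were analysed from 1 table of estimated counts per gene, which the authors deposited without normalization. Per the submitters' processing notes the authors used TopHat, HOMER and DESeq2 on the mouse build mm9, and per the series' design text reads were analysed at the level of isoforms; neither versions nor a strand setting are stated there. All values were multiples of 0.5, and they were taken for expected counts and rounded for the tests, where the design had assumed whole counts. Where entries shared a symbol, the one with the most counts was kept. This dropped 2 of the 24909 entries and left 24907 symbols.

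The tests used edgeR 4.0.16 under R 4.3.3 (filterByExpr, which kept 12538 genes with 99.96% of counts; TMM scaling; quasi-likelihood F test, robust, two-sided) in 1 model with a mean for each of the 4 groups and 4 residual degrees of freedom. A gene was called at an adjusted p under 0.05 (Benjamini-Hochberg, across the whole table of tested genes). The 5 contrasts were Dox-4OHT against DMSO in knockdown and in NS cells, knockdown against NS cells under Dox-4OHT and under DMSO, and the difference of the Dox-4OHT responses. CPM use the TMM factors, and CPM per kilobase divide them by the deposited length. Library totals were 12724604.5 to 16233379 counts, and intervals cover counting error only where they are called counting intervals. Scripts were tested on simulated data.

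Replicates of a group differed by more than counting noise (chi-square per gene 2.28 to 12.7). These values include the entry Rn45s, whose share of counts differed between replicates. It was 0.916% and 2.76% in NS cells under Dox-4OHT, where the chi-square per gene was 12.7. In knockdown cells under DMSO it was 0.387% and 1.36%, with a chi-square per gene of 7.95. The values without Rn45s were not computed. Exons of Tgfb2, Tgfb3, Bmp4 and Fst overlap genes on the other strand in GENCODE M21, Tgfb3 both Gm37804 and Gm48008. Each overlap is 89 to 257 bases, where the deposited lengths are 2053 to 5190 bases. Without a known strand setting, reads within these stretches cannot be told apart from those of the overlapping gene. The other 5 have no such overlap. The members and the gene lists were chosen with earlier results of these data known. The genes named are the 9, Tgfbr1, at most 4 per pathway list with the smallest p over the 5 comparisons and a mean of at least 1 CPM, and the 2 genes nearest each of the 9; 3 genes that the rule gives are not reported here. Alternatives tried were other scalings, DESeq2 1.42.0, no filter, removal of Rn45s, a replicate block and leaving out each library; promoter sequences are from RefSeq (GRCm38.p6).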

Additional observations from a re-analysis of the deposited data

Results flagged for a closer look

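The response to Dox-4OHT differed between knockdown and NS cells in 6 of the 9 genes, by the edgeR test of the difference itself (all 8 libraries). The difference, knockdown minus NS cells on the log2 scale, was 0.66 for Tgfb2, 0.65 for Inhba, 0.73 for Inhbb, 1.26 for Bmp2, -0.47 for Bmp4 and 0.38 for Fst. Tgfb2 and Inhbb rose in knockdown cells and fell in NS cells. The median difference over all genes tested was 0.02, and 38.2% of them passed.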

How the results depend on the processing

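Over 18 other settings, 776 of 801 values of the 9 genes kept their direction and side of the threshold, 4 no longer passed, 9 passed newly and 12 changed sign, 0 of these past the threshold before or after. The sign changes were in Tgfb3 with the knockdown under DMSO (0.015 by library totals, 0.0047 with no filter, and -0.13 to 0.12 when each library was left out) and, when libraries were left out, in Fst there (-0.022 to 0.068), in Inhba and Bmp7 with Dox-4OHT in knockdown cells (-0.029 to 0.17 and -0.072 to 0.48) and in the Bmp7 difference of responses (-0.36 to 0.20). The calls that changed are those of Tgfb3, Inhba, Bmp4 and Bmp7 given beside their values, and with the replicate block Bmp7 in NS cells with Dox-4OHT also passed (0.30, edgeR adjusted p = 0.0396). Same-numbered replicates showed no shared deviation over all tested genes (correlations -0.0227 to 0.0327). This cannot exclude that the numbers pair the libraries, as each group gives only 1 difference between replicates. Of the 9 genes, Bmp2 and Bmp7 were higher and Fst was lower in replicate 1 than in replicate 2 of every group. The other genes kept no such order. The replicate block called 4559, 5319, 7554, 7777 and 4814 genes, against 4531, 5281, 7542, 7763 and 4791 without it. These are for Dox-4OHT in knockdown cells, Dox-4OHT in NS cells, the knockdown under Dox-4OHT, the knockdown under DMSO and the difference of responses. By DESeq2 2628, 3265, 5834, 5922 and 2828 genes passed in the 5 comparisons, in the same order, fewer than by edgeR in each. The cause was not tested. Of the 9, DESeq2 found 0 lower in the difference of responses, with 1 at an unadjusted p under 0.05, against 1 by edgeR. Leaving out each library in turn gave 0 to 1 there, the 0 without NS replicate 1 under DMSO, and 3306 to 4670, 3888 to 5329, 6585 to 7608, 6650 to 7904 and 3918 to 4533 genes called in the 5 comparisons, in the same order. Bmp7 had as few as 91.5 counts in a library, which limits the precision of its values.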

Other observations

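Some further genes of the same lists, chosen after their values were seen, also moved. Nog, which encodes the BMP antagonist noggin, had 8.80 and 7.42 CPM in knockdown cells under Dox-4OHT, against 3.40 and 3.95 CPM in NS cells under Dox-4OHT, and 9.78 and 11.1 CPM in knockdown cells under DMSO, against 6.47 and 8.10 CPM in NS cells under DMSO. Itgb6, an integrin subunit that activates latent TGF-beta, was higher with the knockdown by 0.98 (log2) under Dox-4OHT (edgeR adjusted p = 6.05e-10) and by 0.51 under DMSO (adjusted p = 3.62e-06), while Itgb8, another such subunit, changed by -0.78 (adjusted p = 4.73e-08) and -0.35 (adjusted p = 0.000428). Pcsk6, a proprotein convertase, changed with Dox-4OHT by 0.39 in knockdown cells (edgeR adjusted p = 0.00422) and by 1.19 in NS cells (adjusted p = 5.95e-12). Bmp1, a protease that frees BMPs from chordin, changed by 0.18 in knockdown cells (edgeR adjusted p = 0.0033) and by -0.40 in NS cells (adjusted p = 7.18e-08).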
